A study of Homo sapiens with 4 samples.

Results

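Histone genes encode the proteins that package DNA into nucleosomes. In the deposited tables of RNA recovered with beta-catenin they comprised 25 gene names with 34 transcripts in HT-29, of 6489 names and 9880 transcripts, and 6 names with 14 transcripts in CaCo-2, of 7452 names and 11943 transcripts. They were chosen by name: replication-dependent genes carry names that start with HIST and a digit, and variant genes names that start with H2AF, H3F3 or H1F, with transcripts of a pseudogene class left out. The replication-dependent genes held 21 transcripts of 20 genes in HT-29 and 2 transcripts of 2 genes in CaCo-2. The variant genes held 13 transcripts of 5 genes in HT-29 and 12 transcripts of 4 genes in CaCo-2, and the number of H1F names listed was 0 in both lines.

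HT-29 and CaCo-2 are human colon adenocarcinoma cell lines, and both were untreated. In RNA immunoprecipitation (RIP), a protein is pulled down with an antibody and the RNA bound to it or near it is sequenced. Nuclear lysate of each line gave 1 RIP library, made with a beta-catenin antibody, and 1 input library that saw no antibody. With 4 libraries and no replicates, no test between libraries was made here. Each table row is 1 Ensembl transcript with its level in FPKM, fragments per kilobase of transcript scaled to the fragments of the library, and every row listed was at least 1.5-fold higher in the RIP, so a direction in favour of the RIP is a property of the tables and not a result. A histone transcript that is not listed was not analysed here; nor was a control precipitation.

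Most histone protein is made during DNA replication from replication-dependent genes, which lie in clusters, lack introns and produce mRNAs that end in a conserved stem-loop and not in a poly(A) tail. Stem-loop binding protein and the U7 small nuclear ribonucleoprotein act in forming that end. Variant histones such as H3.3, H2A.Z and macroH2A are encoded by dispersed genes that mostly have introns, give polyadenylated mRNAs and are expressed outside S phase too. Whether these libraries were selected for poly(A) RNA is not given in the sources used here.

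The genes are shown first by the sequence before their starts, because the listed replication-dependent genes share elements there that their choice by name did not use. A window was taken where a gene name matched only 1 RefSeq gene and that gene had only 1 promoter entry. This held for 19 of the 25 genes, 16 of them replication-dependent and 3 variant, in the build GRCh38.p14. The 200 bases before the RefSeq start were searched on both strands for CCAAT (the CCAAT box, a binding site of NF-Y), TATAAA (the TATA box), ATTTGCAT (the octamer bound by OCT1) and CTTTGAT (a motif of TCF/LEF factors, the DNA-binding partners of beta-catenin), and these motifs do not contain each other. CCAAT was found in 15 of the 16 replication-dependent windows and 3 of the 3 variant windows, against 28.0% of 35116 RefSeq promoters. TATAAA was found in 8 of 16 and 2 of 3, against 8.59%. ATTTGCAT was found in HIST1H2AB and H3F3B, against 1.31% of promoters. CTTTGAT was found in 0 of 16 and 0 of 3, against 1.77%, which says only that these letters are not in these windows. A match is a run of letters and not a measured binding site. The windows below are those of the HIST genes with the highest RIP over input (HIST1H4I and HIST3H2A), of the one HIST mRNA listed in both lines (HIST1H3C), of the one window without CCAAT (HIST1H4B), and of an H3.3 gene (H3F3B); capitals mark any match to a motif on either strand. They lie at chr6:27139082-27139281 (plus strand), chr1:228457874-228458073 (minus), chr6:26045184-26045383 (plus), chr6:26027284-26027483 (minus) and chr17:75779780-75779979 (minus) of GRCh38.p14.
HIST1H4I: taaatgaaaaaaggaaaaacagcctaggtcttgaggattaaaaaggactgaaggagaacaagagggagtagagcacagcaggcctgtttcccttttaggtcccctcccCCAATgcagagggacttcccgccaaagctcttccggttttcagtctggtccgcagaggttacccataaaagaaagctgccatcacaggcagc
HIST3H2A: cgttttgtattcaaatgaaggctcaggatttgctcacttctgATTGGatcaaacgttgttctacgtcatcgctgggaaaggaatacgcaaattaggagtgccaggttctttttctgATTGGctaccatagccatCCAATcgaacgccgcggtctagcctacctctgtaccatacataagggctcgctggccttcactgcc
HIST1H3C: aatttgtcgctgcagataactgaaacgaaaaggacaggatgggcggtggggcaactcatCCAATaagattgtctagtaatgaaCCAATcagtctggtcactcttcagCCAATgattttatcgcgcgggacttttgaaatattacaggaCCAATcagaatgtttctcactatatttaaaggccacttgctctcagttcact
HIST1H4B: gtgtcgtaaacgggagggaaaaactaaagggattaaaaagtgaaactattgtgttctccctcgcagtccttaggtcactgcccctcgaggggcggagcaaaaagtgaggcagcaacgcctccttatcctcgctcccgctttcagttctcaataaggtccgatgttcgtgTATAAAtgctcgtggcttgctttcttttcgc
H3F3B: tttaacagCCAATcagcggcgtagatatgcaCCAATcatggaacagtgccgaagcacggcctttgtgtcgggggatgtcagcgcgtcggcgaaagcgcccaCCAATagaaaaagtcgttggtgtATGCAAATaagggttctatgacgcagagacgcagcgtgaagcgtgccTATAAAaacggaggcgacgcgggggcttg

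In HT-29, replication-dependent histone mRNAs were among the listed protein-coding transcripts with the highest RIP levels. The table leaves out transcripts that were not higher in the RIP than in the input. Their rank in the whole RIP library is therefore not known. Of the 50 protein-coding transcripts with the highest RIP level in the table, 12 were replication-dependent histone genes and 1 was a variant, H2AFZ. The 21 transcripts had a median of 98.7 FPKM in the RIP (lowest 1.59, highest 409) and 46.9 FPKM in the input (0 to 246), where all listed transcripts had medians of 2.45 in the RIP and 0.600 in the input. Input was at least 10 FPKM for 16 of the 21, against 301 of the 9880 listed transcripts. RefSeq holds 71 protein-coding genes with a HIST name, of which 20 were listed: 1 of 6 H1 genes, 2 of 17 H2A, 4 of 18 H2B, 8 of 15 H3 and 5 of 15 H4. The other genes were not analysed here.

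**Figure D1:**
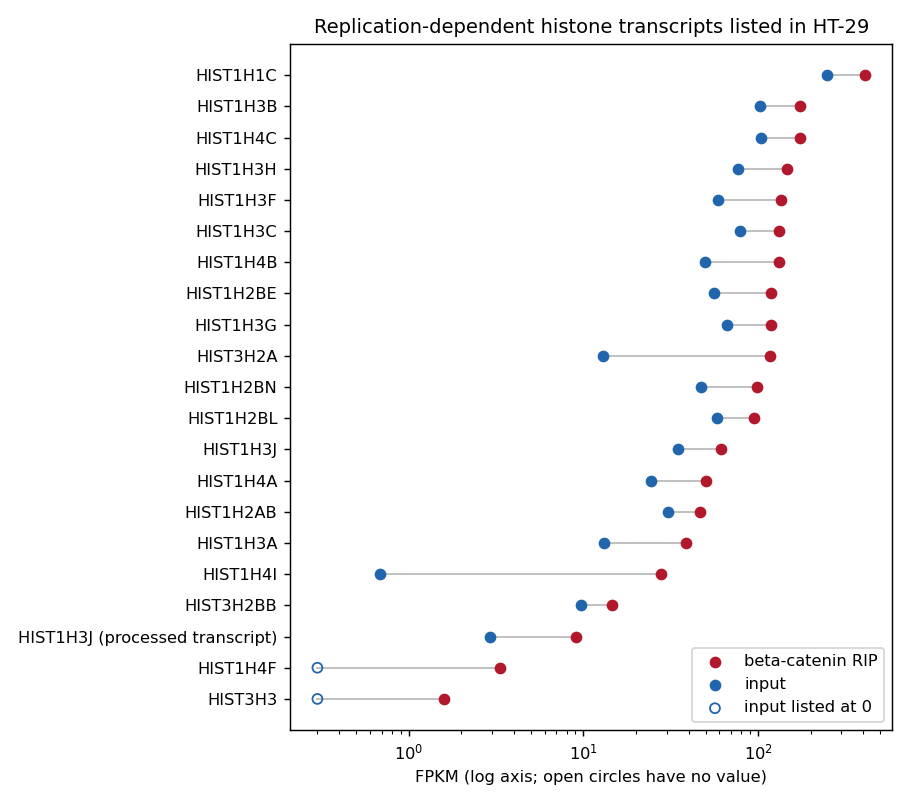
Level of each replication-dependent histone transcript listed in HT-29 in the beta-catenin RIP (red) and in the input (blue), in FPKM on a log axis; each row is 1 transcript with 1 library per point. Most transcripts lie between 38.7 and 173 FPKM in the RIP with a narrow gap to the input, and HIST3H2A and HIST1H4I have the wide gaps among those with an input above 0.

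HIST1H1C, a linker histone H1.2 gene (hg19 chromosome 6, 26055968 to 26056699), was the highest listed histone transcript. It was at 409 FPKM in the RIP and 246 in the input, a fold of 1.66. The authors' deposited table lists it with q of 0.0701.

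The HIST1 genes below lie on chromosome 6, with positions in hg19. Genes of the core histone H3 were the largest group, with RIP levels up to 173 FPKM. HIST1H3B (26031817 to 26032288) was at 173 FPKM in the RIP against 103 in the input. HIST1H3H (27777842 to 27778314) was at 147 FPKM in the RIP against 77.0 in the input. Both encode canonical H3.1. HIST1H3F (26250370 to 26250835) was at 135 FPKM in the RIP against 58.8 in the input. HIST1H3C (26045639 to 26046097) was at 132 FPKM in the RIP against 78.6 in the input, and HIST1H3G (26271146 to 26271612) at 118 in the RIP against 66.7 in the input. The RIP was higher than the input by 1.68 to 2.30 times over these 5 genes. HIST1H3J (27858093 to 27858570) was at 61.5 FPKM in the RIP against 34.6 in the input. HIST1H3A (26020718 to 26021186) was lower, at 38.7 FPKM in the RIP against 13.1 in the input, with a larger fold of 2.95. HIST3H3 on chromosome 1 (228612546 to 228613026), the gene of the testis H3 protein, was at 1.59 FPKM in the RIP and listed at 0 in the input.

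Of the H4 genes, HIST1H4C (26104104 to 26104518) was at 173 FPKM in the RIP and 103 in the input, and HIST1H4B (26027124 to 26027480) at 131 in the RIP against 49.5 in the input. HIST1H4A (26021907 to 26022278) was at 49.98 FPKM in the RIP against 24.4 in the input. HIST1H4I (27107076 to 27108418) stood apart with 27.7 FPKM in the RIP and 0.683 in the input. That is a fold of 40.6, the highest of the replication-dependent transcripts with an input above 0. The HIST1H4I transcript of the table spans 1343 nucleotides, where the other intronless transcripts span 357 to 732, and where along it the fragments fall was not analysed here. HIST1H4F (26240561 to 26240976) was at 3.34 FPKM in the RIP and listed at 0 in the input.

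Of the H2B genes, HIST1H2BE (26183958 to 26184454) was at 118 FPKM in the RIP against 56.2 in the input. HIST1H2BN (27806440 to 27806888) was at 98.7 FPKM in the RIP against 46.9 in the input, and HIST1H2BL (27775257 to 27775709) at 94.95 in the RIP against 57.9 in the input. Their folds were 2.11, 2.11 and 1.64. Of the H2A genes, HIST1H2AB (26033320 to 26033796) was at 46.3 FPKM in the RIP against 30.4 in the input, a fold of 1.52, close to the lowest fold the table holds.

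HIST3H2A and HIST3H2BB are a divergent pair on chromosome 1 with 247 nucleotides between them, so their promoter windows overlap and most of the window printed for HIST3H2A also lies before HIST3H2BB. HIST3H2A (228645065 to 228645560, minus strand) was at 116 FPKM in the RIP against 12.9 in the input, a fold of 8.98. HIST3H2BB (228645808 to 228646259, plus strand) was at 14.6 FPKM in the RIP against 9.63 in the input, a fold of 1.52. The neighbours were thus near each other in the input and apart in the RIP. Of the 4898 protein-coding transcripts, none had a smaller q in the authors' deposited table than HIST3H2A, which is listed there with 0, and ties were not counted. HIST3H2BB is listed there with 0.747.

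The input was listed at 0 for 2 of the 21 replication-dependent and 3 of the 13 variant transcripts of HT-29, where it was for 31.8% of all listed transcripts. In CaCo-2 this held for 0 of 2 and 3 of 12, where it held for 29.0%. With a pseudocount of 1 FPKM on both sides, 11 of the 21 replication-dependent transcripts were at least 2-fold higher in the HT-29 RIP, where 56.0% of all 9880 listed transcripts were. Their median log2 ratio was 1.004, against 1.14 over all listed transcripts, and among transcripts with an input of at least 10 FPKM 7 of 16 passed, against 48.5%. The median fold of protein-coding transcripts with such an input was 1.83 without the histones, that of all classes without the histones was 2.04, and that of the 16 replication-dependent transcripts was 1.84.

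Low q-values of the authors were more frequent among the replication-dependent transcripts of HT-29 than among all listed transcripts. The median folds just given, 1.84 and 1.83 among protein-coding transcripts, were alike. In the authors' deposited table, q was at or below 0.05 for 9 of the 21 replication-dependent transcripts in HT-29, against 3.08% of all listed transcripts. With an input of at least 10 FPKM it was 8 of 16 in the authors' deposited table, against 11.6% of all 301 such transcripts and 6.47% of the protein-coding ones that are not histones. Variant transcripts of such an input had the same share, with 2 of 4, so it was not particular to the replication-dependent ones. Of the 19 protein-coding transcripts of that level with q at or below 0.05 in the authors' deposited table, 10 were histone transcripts, although histones were 20 of the 159. These q-values come from 1 library a side, so they compare 2 libraries and not 2 conditions. Beside HIST3H2A, the authors' deposited table lists q of 0.000822 for HIST1H3F, 0.00115 for HIST1H4B, 0.00154 for HIST1H4I and 0.00375 for HIST1H2BE. It was 0.0107 for HIST1H3H, 0.0177 for HIST1H3A, 0.0453 for HIST1H3B and 0.0486 for HIST1H3G in the authors' deposited table.

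The number of fragments behind these levels could be estimated, because low FPKM values of single-exon transcripts step in whole fragments. In processed pseudogenes of 380 to 700 nucleotides, 95.8% of low values in the RIP of HT-29 and 94.1% in its input fell within 0.1 of a whole number of fragments. The shares were 88.1% in the RIP of CaCo-2 and 93.5% in its input. What 1 fragment is worth was fitted on these same values, so these shares are not a separate check. For a transcript of 470 nucleotides, 1 fragment was worth 0.550 FPKM in the RIP and 0.335 in the input of HT-29, and 0.286 FPKM in the RIP and 0.261 in the input of CaCo-2. Applied to the intronless HIST genes, all 4 RIP values and all 6 input values of at most 60 fragments were whole within the same tolerance. Larger values were not all whole. In the RIP of HT-29, HIST1H1C came to 1376.56 fragments, HIST1H4B to 150.70 and HIST1H3J to 114.65. HIST1H1C, HIST1H4A, HIST1H4B and HIST1H4I also have spans outside 380 to 700 nucleotides. Their counts, and other large counts, are therefore rounded extrapolations. Intervals built on these estimates cover counting error alone and no spread between libraries. How reads that match several near-identical histone genes were shared is not given in the sources used here, and nearly all H4 genes, like many H3 genes, encode 1 shared protein, so single-gene values are uncertain in that respect.

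By this estimate HIST1H1C had 1377 fragments in the RIP of HT-29 and 1378 in its input. HIST1H2BL had 163 in each. HIST1H3C had 231 in the RIP and 226 in the input, and HIST1H4C 258 in the RIP and 252 in the input. These genes took about equal numbers of fragments in both libraries, and their folds of 1.64 to 1.68 are about the ratio of what 1 fragment was worth in each library. HIST1H3F had 242 fragments in the RIP and 173 in the input, HIST1H4B 151 in the RIP and 92 in the input, and HIST1H3A 70 in the RIP and 39 in the input. HIST3H2A had 229 fragments in the RIP and 42 in the input, a fold of 8.98 with a 95% counting interval of 6.43 to 12.8. HIST3H2BB had 25 in the RIP and 27 in the input, with an interval of 0.844 to 2.72, which does not meet that of its neighbour. HIST1H4I had 193 in the RIP and 8 in the input, with an interval of 20.1 to 95.1. HIST1H4F had 5 fragments in the RIP and 0 in the input. Its RIP level was 2.72 times that of a floor of 3 fragments in the input library. That ratio leaves out the counting error of the 5 RIP fragments, so it is not a lower bound. HIST3H3 had 3 in the RIP and 0 in the input, and no fold is given.

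**Figure D2:**
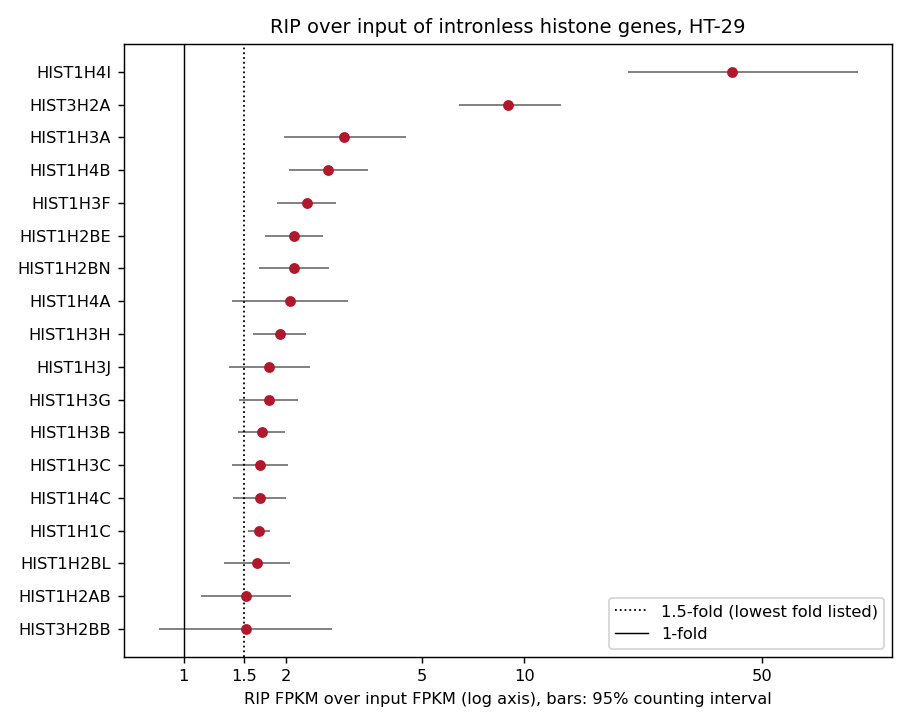
RIP over input FPKM of the intronless replication-dependent genes with an input above 0 in HT-29, on a log axis, with 95% counting intervals from the estimated fragments as bars. HIST1H4I at 40.6 and HIST3H2A at 8.98 lie right of the other genes, whose folds run from 1.52 to 2.95. Many intervals of these other genes overlap, but not all. That of HIST1H4B, 2.03 to 3.47, lies above that of HIST1H1C, 1.54 to 1.79.

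The listed genes lay in 2 parts of the large histone cluster on chromosome 6, with HIST1H4I between them, and in the small cluster on chromosome 1. From 26020718 to 26271612 of hg19, 12 genes had a median fold of 1.78 over those with an input above 0. Of these 12, 6 had q at or below 0.05 in the authors' deposited table, against 3.08% of all listed transcripts. All of them but HIST1H4F had an input of at least 10 FPKM, where the share over all listed transcripts was 11.6%. From 27775257 to 27860884, 5 transcripts of 4 genes had a median fold of 1.91, and 1 had q at or below 0.05 in that deposited table of the authors.

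The CaCo-2 list held 2 replication-dependent transcripts, both of H3 genes. HIST1H3C was at 0.889 FPKM in the RIP and 0.271 in the input, which corresponds to 3 fragments in the RIP against 1 in the input and a ratio of 3.28 with a counting interval of 0.263 to 172. In HT-29 the same transcript was at 132 FPKM in the RIP and 78.6 in the input. The other transcript was a HIST1H3J entry of the class processed transcript (ENST00000479986, 27858413 to 27860884), which spans 2472 nucleotides, where the HIST1H3J mRNA spans 478, and overlaps the 5′ end of that mRNA on the same strand. It was at 9.09 FPKM in the RIP and 2.90 in the input of HT-29, and at 9.02 in the RIP and 4.18 in the input of CaCo-2. So the HIST1H3J processed transcript had like levels in both lines, while HIST1H3C was 148 times higher in the HT-29 RIP than in the CaCo-2 RIP. The tables were normalised separately, and the CaCo-2 level of HIST1H3C rests on an estimated 3 fragments in the RIP and 1 in the input. The cause of the difference was not tested. In lysates of whole cultures, fewer cells in S phase and less histone mRNA per cell cannot be told apart. Nor can these be told apart from poly(A) selection or the sharing of reads between similar genes, which are not given. At least 2-fold higher with the pseudocount was 0 of the 1 replication-dependent transcript that passed 1 FPKM in CaCo-2, against 40.8% of the 10116 listed transcripts that passed.

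Of the H3.3 genes, H3F3A was listed in both lines by the same mRNA (ENST00000366815, chromosome 1, 226250379 to 226259700). HT-29 had 41.2 FPKM of it in the RIP and 16.7 in the input, a fold of 2.47, and CaCo-2 had 17.4 in the RIP and 8.51 in the input, a fold of 2.04. The authors' deposited table lists q of 0.0249 for it in HT-29 and 0.128 in CaCo-2. A shorter H3F3A mRNA was listed in HT-29 at 2.42 FPKM in the RIP against 1.47 in the input. H3F3B, which encodes the same H3.3 protein, was split over 5 listed transcripts in each line, 3 of them shared. Transcripts of 1 gene share exons, so the split between them is an estimate of the authors' software. The main one in HT-29, ENST00000589599 (chromosome 17, 73774655 to 73775861), was at 54.3 FPKM in the RIP against 24.8 in the input. Over the 5 listed transcripts H3F3B summed to 81.9 FPKM in the RIP and 28.3 in the input of HT-29, and to 23.2 in the RIP and 6.13 in the input of CaCo-2. ENST00000587171 of H3F3B was at 12.9 FPKM in the RIP of HT-29, with its input listed at 0, and at 5.14 in the RIP against 1.15 in the input of CaCo-2. ENST00000591890 was at 5.05 FPKM in the RIP of HT-29, with its input listed at 0, and at 4.18 in the RIP against 1.58 in the input of CaCo-2. A retained-intron transcript of H3F3B, ENST00000589417, was at 4.22 FPKM in the RIP against 1.71 in the input in HT-29 and at 3.16 in the RIP against 0.0823 in the input of CaCo-2, and another, ENST00000586518, was at 5.52 in the RIP against 1.82 in the input of HT-29. The CaCo-2 fold of 38.4 for ENST00000589417, and that of 36.8 for ENST00000586270 at 3.34 FPKM in the RIP against 0.0909 in the input, rest on inputs that are lower than 0.1 FPKM. The remaining H3F3B transcript of CaCo-2, ENST00000592643, was at 7.35 FPKM in the RIP against 3.23 in the input.

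The H2A.Z genes differed between the lists. H2AFZ, which encodes H2A.Z.1, was listed in HT-29 alone, by its mRNA (chromosome 4, 100869245 to 100871545) at 140 FPKM in the RIP and 77.6 in the input (q of 0.0109 by the authors' deposited table), and by a retained-intron transcript at 1.58 in the RIP against 0.963 in the input. H2AFV, which encodes H2A.Z.2, was listed in HT-29 by ENST00000308153 (chromosome 7, 44873827 to 44887662) at 45.4 FPKM in the RIP against 22.4 in the input. In CaCo-2 H2AFV was listed by other mRNAs, ENST00000349299 at 4.28 FPKM in the RIP against 2.20 in the input and ENST00000350771 at 3.81 with the input listed at 0. That H2AFZ is not in the CaCo-2 list does not show that its RNA was lower there.

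H2AFY encodes macroH2A1, an H2A with a large additional domain. Its mRNA ENST00000510038 (chromosome 5, 134670603 to 134735574) was at 15.2 FPKM in the RIP and 6.77 in the input of HT-29, and at 4.82 in the RIP and 2.60 in the input of CaCo-2. A second mRNA in HT-29 was at 9.93 FPKM in the RIP against 4.52 in the input, and one in CaCo-2 at 1.52 in the RIP against 0.268 in the input. Processed transcripts of H2AFY were listed at 1.65 FPKM in the RIP of HT-29 and at 1.398 and 0.908 in the RIP of CaCo-2, each with the input listed at 0. Summed over its listed transcripts, H2AFY was at 26.7 FPKM in the RIP and 11.3 in the input of HT-29, and at 8.64 in the RIP and 2.87 in the input of CaCo-2.

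Over the variant genes, 7 of 13 transcripts in HT-29 and 6 of the 11 that passed 1 FPKM in CaCo-2 were 2-fold or more above input in the RIP, where 56.0% and 40.8% of all listed transcripts were. Their median log2 ratio was 1.06 in HT-29 and 1.01 in CaCo-2, against 1.14 and 0.82 over all listed transcripts. The authors' deposited table gave q at or below 0.05 for 2 of 13 in HT-29 (H2AFZ and H3F3A), against 3.08%, and for 0 of 12 in CaCo-2, against 2.24% of all listed transcripts. Variant levels had medians of 9.93 FPKM in the RIP and 1.82 in the input of HT-29, and of 3.99 in the RIP and 0.709 in the input of CaCo-2.

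**Figure D3:**
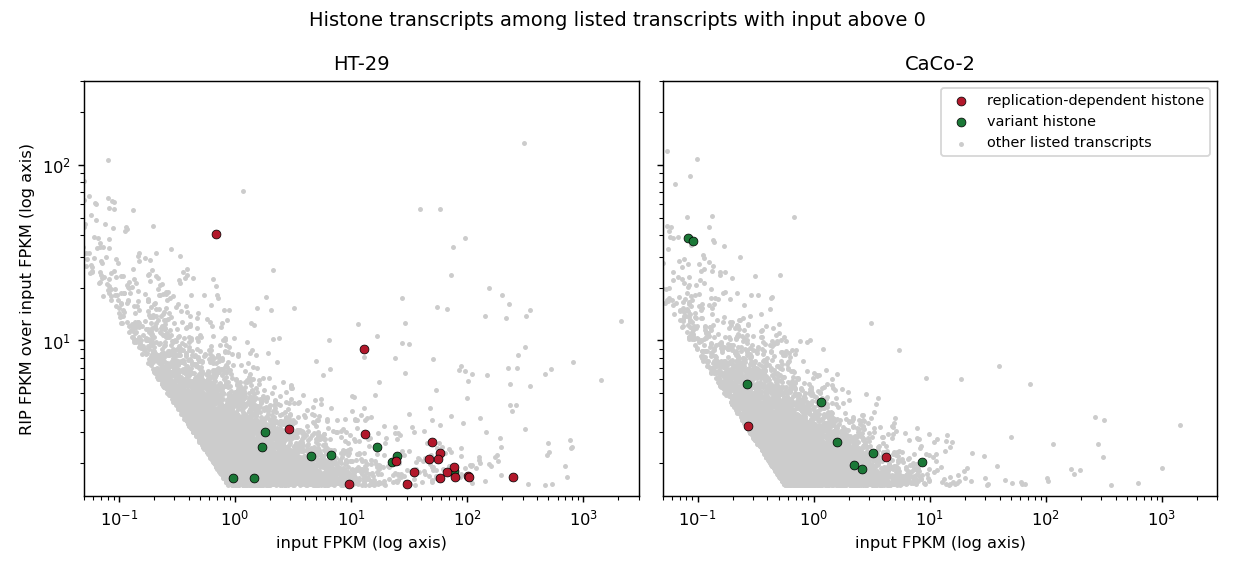
RIP over input FPKM against input FPKM, both on log axes, for every listed transcript with an input above 0 within the axes (grey), with replication-dependent (red) and variant (green) histone transcripts, in HT-29 and CaCo-2. In HT-29 16 replication-dependent transcripts lie at inputs of 10 FPKM or more and mostly at low folds, while in CaCo-2 0 histone transcripts do.

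In all, 7 transcripts were listed in both lines, which is 20.6% of the 34 in HT-29 and 50% of the 14 in CaCo-2. Over all transcripts, 1928 were in both lists, which is 19.5% of the HT-29 list and 16.1% of the CaCo-2 list. They were the HIST1H3C mRNA, the HIST1H3J processed transcript, 1 mRNA each of H2AFY and H3F3A, and 3 H3F3B transcripts. The RIP level was higher in HT-29 than in CaCo-2 for each of the 7, by 1.01 times for HIST1H3J, 1.21 to 2.50 times for H3F3B, 2.37 times for H3F3A, 3.15 times for H2AFY and 148 times for HIST1H3C. Over all 1928 shared transcripts the RIP level was higher in HT-29 for 66.8%, with a median ratio of 1.31, in tables that were normalised separately. By gene name, all 6 histone genes of the CaCo-2 list were among the 25 of HT-29, which is 24% of these. Of all names, 51.6% of those in the CaCo-2 list were also in the HT-29 list, and 59.2% of those in the HT-29 list were also in the CaCo-2 list.

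**Figure D4:**
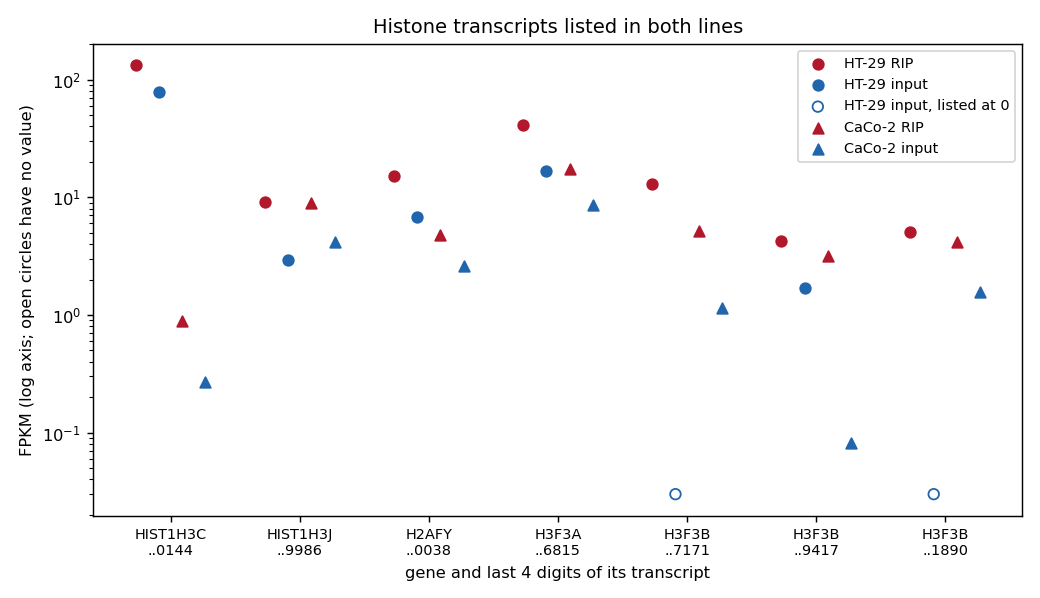
Levels in FPKM, on a log axis, of the 7 histone transcripts listed in both lines, with 1 point per library: RIP (red) and input (blue) of HT-29 (circles) and CaCo-2 (triangles); open circles are inputs listed at 0. The RIP points of HIST1H3C are at 132 FPKM for HT-29 and 0.889 for CaCo-2, and HIST1H3J is at about the same level in both.

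Genes that act on histone mRNA or protein were listed at up to 15.2 FPKM in the RIP. Here and in the next paragraph each gene stands for its listed transcript with the highest RIP level, which can differ between the lines. An input listed at 0 is that of this transcript and not of the gene. The shares over all listed transcripts involve no choice by RIP level. Of 19 genes of histone mRNA 3′ end processing, its control and its decay, each line listed 6, and 3 of those in each line passed 2-fold, where 56.0% of all listed transcripts passed in HT-29 and 40.8% in CaCo-2. Their median log2 ratio was 0.88 in HT-29, against 1.14 over all listed transcripts, and 1.19 in CaCo-2, against 0.82. The authors' deposited table gave q at or below 0.05 for 0 of them in HT-29 and 1 in CaCo-2, NCBP2, a cap-binding protein, at 1.92 FPKM in the RIP with the input listed at 0, for which that table has q of 0.0162. SLBP, the stem-loop binding protein, was listed in CaCo-2 at 5.92 FPKM in the RIP against 3.24 in the input. SRRT, which links the cap-binding complex to RNA processing, was at 4.10 FPKM in the RIP of HT-29, with its input listed at 0, by a retained-intron transcript. Of 25 histone chaperone genes the HT-29 list held 16 and the CaCo-2 list 17, of which 16 in each line reached 1 FPKM. Of these 16, 11 passed 2-fold in HT-29 and 9 in CaCo-2, against the same 56.0% and 40.8%, and the median log2 ratios were 1.32 in HT-29 and 1.11 in CaCo-2. In each line 2 of them had q at or below 0.05 by the authors' deposited table, where 3.08% of all listed transcripts in HT-29 and 2.24% in CaCo-2 had: RBBP4 and EP400 in HT-29, and VPS72 and EP400 in CaCo-2. EP400 and VPS72 belong to complexes that handle H2A.Z, and both were named after their values were seen. NPM1, nucleophosmin, was given in both lines by ENST00000523622. This transcript was at 15.2 FPKM in the RIP of HT-29, with its input listed at 0 and q above 0.05 in the authors' deposited table. It was at 8.39 in the RIP against 4.96 in the input of CaCo-2. NAP1L4, a nucleosome assembly protein, was at 12.9 FPKM in the RIP against 8.32 in the input of HT-29 and at 6.57 in the RIP against 2.29 in the input of CaCo-2. For NAP1L4, as for RBBP4, the transcript given differed between the lines. RBBP4, a subunit of the chromatin assembly factor CAF-1, was at 10.4 FPKM in the RIP of HT-29, with its input listed at 0 (q of 0.0382 by the authors' deposited table), and at 6.30 in the RIP against 2.75 in the input of CaCo-2.

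Of 29 DNA replication genes the HT-29 list held 16 and the CaCo-2 list 20, of which 17 reached 1 FPKM. In HT-29, 8 of 16 passed 2-fold, against 56.0% of all listed transcripts. For CaCo-2 it was 4 of 17, against 40.8%, and the median log2 ratios were 0.93 in HT-29 and 0.69 in CaCo-2. LIG1, a DNA ligase named after its values were seen, was the 1 with q at or below 0.05 by the authors' deposited table, in HT-29, at 4.91 FPKM in the RIP against 0.638 in the input. The lists thus held replication genes in both lines, at up to 9.80 FPKM in the RIP of HT-29 and 4.16 in that of CaCo-2. MCM7, a helicase subunit, was at 9.80 FPKM in the RIP against 5.94 in the input in HT-29 and, by a retained-intron transcript, at 2.01 in the RIP against 0.786 in the input of CaCo-2. TK1, thymidine kinase, was at 9.74 FPKM in the RIP against 0.384 in the input in HT-29. Another TK1 transcript was at 2.79 FPKM in the RIP of CaCo-2, with its input listed at 0. Of 12 genes with ubiquitous polyadenylated mRNAs, each line listed 10, of which 6 in HT-29 and 4 in CaCo-2 passed 2-fold, against the same shares. Most were given by transcripts of other classes than protein-coding. Only GAPDH, TUBA1B and HSP90AB1 in HT-29, and GAPDH, EEF2, HSP90AB1 and TUBB in CaCo-2, were given by protein-coding ones. The counts thus do not describe the mRNAs of these genes. EEF1A1, a translation elongation factor, was the highest of them in both lines, by a processed transcript at 189.9 FPKM in the RIP against 29.1 in the input of HT-29 and at 73.0 in the RIP against 38.0 in the input of CaCo-2. CENPA, the centromeric H3 variant that the naming rule leaves out, was at 3.27 FPKM in the RIP against 0.00057 in the input in HT-29. That input is lower than 0.1 FPKM, so no fold is given, and the authors' deposited table has q above 0.05 for CENPA. Of 9 colon epithelial markers, the HT-29 list held 6 and the CaCo-2 list 4. They were led by KRT18 at 54.3 FPKM in the RIP of HT-29 and 32.0 in that of CaCo-2. EPCAM, CDX2 and CDH17 of the colon markers were in neither list, and of 5 markers of other cell types 0 were listed in either line. A gene that is not listed can still be expressed, so these lists do not check the identity of the cells.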

How the data were processed

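RNA was measured in 4 libraries, 1 RIP and 1 input for each of 2 cell lines, grouped by the sample titles. Per the submitters' processing notes, CASAVA 1.4, Bowtie2, TopHat2 2.0.8, Cufflinks and Cuffdiff were used with hg19; anything further on versions, strand or multiply matching reads is not given in the sources used here. The authors deposited 2 Cuffdiff tables with FPKM per Ensembl transcript and their own p-values and q-values from 1 library a side. Every deposited row has a RIP over input fold of at least 1.5 and the lowest RIP level is 1.31 FPKM for HT-29 and 0.842 for CaCo-2. Starts in the tables count from 0 and are printed from 1. Of the per-sample columns, 0 could not be assigned.

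The ratio is on the log2(FPKM + 1) scale, RIP minus input, which understates low transcripts; it was read where either library reached 1 FPKM. A fold without a log is the plain quotient of the FPKM values. No test was made, since there is 1 library a group. The FPKM of 1 fragment, for values up to 8 fragments, was fitted as a constant over length minus an offset in processed pseudogenes. The fit was run on simulated data that followed the same formula without error, so that run checked the code alone. Fold intervals are 95% exact binomial ones from the rounded fragments. Sequencing depth as such is unknown. Every member is named or counted, with up to 4 genes per list, taken from the highest RIP levels in HT-29 or CaCo-2, beside list genes named for their q; each list gene stands for its most abundant RIP transcript. Members and lists were chosen with earlier results of these data known. Of 25 gene names, 24 matched 1 RefSeq gene. Python 3.11.15, pandas 2.3.3 and scipy 1.17.1 were used.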

Additional observations from a re-analysis of the deposited data

How the results depend on the processing

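Under 58 alternatives of the counts and medians of histone transcripts, 17 moved a count by over 1.5 times or a median out of its 95% order-statistic interval (with under 6 transcripts, their range). No paired analysis was possible because each group has 1 library. In HT-29, the 11 of 21 replication-dependent transcripts past 2-fold became 6 of 21 with a pseudocount of 5 FPKM. With an input of 10 FPKM or more they were 7 of 16, against 48.5% of all listed transcripts of that input. With at least 1 FPKM in both libraries they were 8 of 18, against 25.2% of all listed transcripts that reached it. The 7 of 13 variant transcripts of HT-29 became 3 of 13 with a pseudocount of 5 FPKM, with a median log2 ratio of 0.78. They became 4 of 9 with at least 1 FPKM in both libraries, against the same 25.2%. With an input above 0 they were 4 of 10, against 35.5% of all listed transcripts with such an input. The count was 3 of 5 with 1 transcript per gene. With an input of 10 FPKM or more it was 2 of 4, against the same 48.5%. In CaCo-2, the 6 of 11 variant transcripts became 0 of 11 with a pseudocount of 5 FPKM and 0 of 4 with 1 transcript per gene. Where both libraries reached 1 FPKM they were 2 of 6, against 13.1% of all listed transcripts that reached it. The median of the 11 was 2.07 with a pseudocount of 0.1 FPKM and 0.58 with 5. The replication-dependent median of CaCo-2, from 1 transcript, was 1.09 with a pseudocount of 0.1 FPKM, where 1 transcript passed, 0.61 with 5, and 0.76 without the filter. The subsets by input level were chosen after seeing the data. The subsets hold fewer transcripts by construction, and a larger pseudocount draws ratios toward 0; the removed filter adds 1 CaCo-2 transcript, HIST1H3C. Any further cause was not tested. The fold of 1.5 that the tables require hides histone transcripts that are lower in the RIP, and 1 library a group leaves the error between libraries unknown.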

Other observations

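Histone pseudogene transcripts were left out of the counts above: HT-29 had 3 and CaCo-2 had 1. HIST1H2BPS3 (chromosome 13, 22057973 to 22058313) reached 13.2 FPKM in the RIP of HT-29 with its input listed at 0, and the authors' deposited table gives it q of 0.0317. H2AFZP4 was at 2.36 FPKM in the RIP against 0.972 in the input and H3F3AP6 at 1.36 in the RIP with the input listed at 0 in HT-29, and HIST2H3DP1 was at 1.04 FPKM in the RIP with the input listed at 0 in CaCo-2. How reads were shared between these copies and the genes they resemble was not analysed here.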
